A study of Homo sapiens with 6 samples.

Results

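The genes examined here encode the machinery that copies chromosomal DNA and makes its precursors. They comprise 37 genes chosen by name: the subunits of the MCM helicase and of GINS, the licensing factors CDT1, GMNN and CDC6, the clamp PCNA and its loader RFC, the single-strand binding protein RPA, subunits of the replicative polymerases with the primase PRIM1, the Okazaki fragment enzymes FEN1 and LIG1, 5 enzymes of deoxynucleotide synthesis and the histone chaperone NASP. Of the 10072 genes in the count table, 32 were members of this group, and 15 of these had enough reads to be tested. The other 5 members had no row. Knockdown of the TERT splice variant was followed by a lower level of RPA3, scaled to the library, in every siDelta2-4 library than in any siControl library. RPA3 was the 1 tested member of 15 past the threshold, which 13.0% of all tested genes passed, and no member was called higher. Its call was lost in 5 of the 6 fits that left out 1 library, with library totals as the scaling and with a replicate block.

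The data were long-read counts from 6 PCR-cDNA libraries of Calu-6, a long-established human lung carcinoma line. Cells received 10 nM of a non-silencing siRNA (siControl, 3 libraries) or of one aimed at the TERT Delta 2-4 variant (siDelta2-4, 3 libraries), whose exon 1 joins exon 5, for 48 h, and the comparison asks how the transcriptome differs after the knockdown of this variant. The labels gave the genotype as WT in both groups, while every count column carried the word Empty, which the study uses for cells with an empty Flag-V5 vector, so both groups may carry that vector. The study calls the samples of a group biological replicates, whereas the labels name no separate cultures, and the p-values below measure the spread between these libraries. Libraries are named by the number in their column, which the labels tie to no sample.

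Library totals ranged from 1037468 to 1309241 counts. On the first principal component (42.9% of the variance) siControl 3 lay at -0.36, between siControl 1 and 2 at -16.9 and -15.2 and the siDelta2-4 libraries at 8.71 to 13.8, and the results that turn or lose a call without this library are also given without it. TERT itself had no row, so the knockdown of the target could not be checked in these counts. The carcinoma markers KRT8 (114 to 171 counts per library) and KRT18 (162 to 231 counts) were present. EPCAM had 1 to 3 counts, KRT19 had at most 1, CDH1 had no row, and VIM had 130 to 206. None of the 4 lung lineage markers looked for had a row, and neither did any of the blood, endothelial or fibroblast markers. Every model in the table had at least 1 count in siDelta2-4 while 4526 of 21472 had none in siControl, which is a property of the table itself.

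DNA replication is prepared in G1, when the licensing factors load MCM helicases onto origins. It starts in S phase, when GINS joins the helicase and the strands are unwound. RPA coats the exposed single strands, primase starts each new stretch, RFC places the PCNA ring around the DNA and the polymerases extend, after which FEN1 and LIG1 trim and seal the Okazaki fragments. Ribonucleotide reductase, thymidylate synthase, thymidine kinase and dUTPase keep the deoxynucleotide pool supplied and free of uracil. Many of these genes are transcribed late in G1 under E2F factors, and their transcripts are abundant in proliferating cells such as carcinoma lines.

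RefSeq promoter windows on GRCh38.p14, which run from 250 bases before to 50 bases after a transcription start, were found for 31 of the 37 members in 44 windows. An E2F match was any of the strings TTTCCCGC, TTTCGCGC, TTTGCCGC or TTTGGCGC on either strand, with overlapping matches in a window counted as 1 window. Such a match was present in 16 member windows (36.4%), each from a different member, against 3.31% of all 35116 windows. The string CCAAT, counted separately on both strands, was in 24 member windows (54.5%) against 34.6% of all windows. These are matches of letters, not measured sites. Among tested members, 6 of the 13 with a window had an E2F match, and their stretches are shown because they place the motif known from S-phase genes beside the genes whose reads were counted. The match closest to the start and up to 20 bases on either side are given along the strand of the gene, 5′ to 3′, ending before the start, with the matches in capitals. For DUT the stretch is chr15:48332150-48332196 on the plus strand, where 2 matches began 42 and 27 bases before the start. For GINS2 it is chr16:85688958-85689005 on the minus strand, 31 bases before the start. For GMNN it is chr6:24775313-24775360 on the plus strand, 80 bases before. For MCM7 it is chr7:100101398-100101426 on the minus strand, 9 bases before. For PCNA it is chr20:5126654-5126701 on the minus strand, 59 bases before. For POLE4 it is chr2:74958592-74958639 on the plus strand, 31 bases before.
DUT: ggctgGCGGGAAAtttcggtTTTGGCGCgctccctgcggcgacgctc
GINS2: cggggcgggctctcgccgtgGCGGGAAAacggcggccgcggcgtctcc
GMNN: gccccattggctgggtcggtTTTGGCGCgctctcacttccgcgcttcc
MCM7: cggtcacgtggggggcgacgTTTCGCGCc
PCNA: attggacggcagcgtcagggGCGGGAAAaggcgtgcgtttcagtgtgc
POLE4: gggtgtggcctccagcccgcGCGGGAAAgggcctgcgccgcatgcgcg
DUT, GINS2, PCNA and POLE4 share the string GCGGGAAA, while DUT and GMNN share TTTGGCGC. None of these 6 members was called after knockdown in the reported fit, which called 13.0% of all tested genes, so few calls among 6 were to be had. Their log2 fold changes were below 0 for DUT, GINS2, MCM7 and POLE4 and above 0 for GMNN and PCNA. That of GMNN was below 0 with known models alone and that of PCNA after removal of the length trend. After that removal DUT was called (log2 fold change -0.79, edgeR adjusted p = 0.0626), in a fit that called 12.1% of all tested genes.

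How far each member could be read depended on the number of its reads. The counts were long reads after PCR, with no molecular identifiers described, and were not divided by length. No row was present for MCM2, MCM6, CDT1, RFC1 or POLD1. The table lists no model without a count in siDelta2-4, so this is not a measured absence in siControl. A further 17 members had a row with 1 to 69 counts over the 6 libraries, 310 in all, and stayed under the filter of about 9.16 CPM (counts scaled to a common library total) in at least 3 libraries. The 15 tested members had 65 to 1734 counts each and 4042 together.

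Members with few reads tended to have long transcripts. The canonical Gencode transcript had a median length of 1609 nt (1097 to 3258 nt) among tested members, 3125 nt (1613 to 4847 nt) among those under the filter and 3436 nt (2664 to 4870 nt) among those with no row. Over the 37 members, Spearman's rho between this length and the read count was -0.638, a description over genes that share the same 6 libraries. The part of full-length capture in these counts was not tested.

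**Figure D1:**
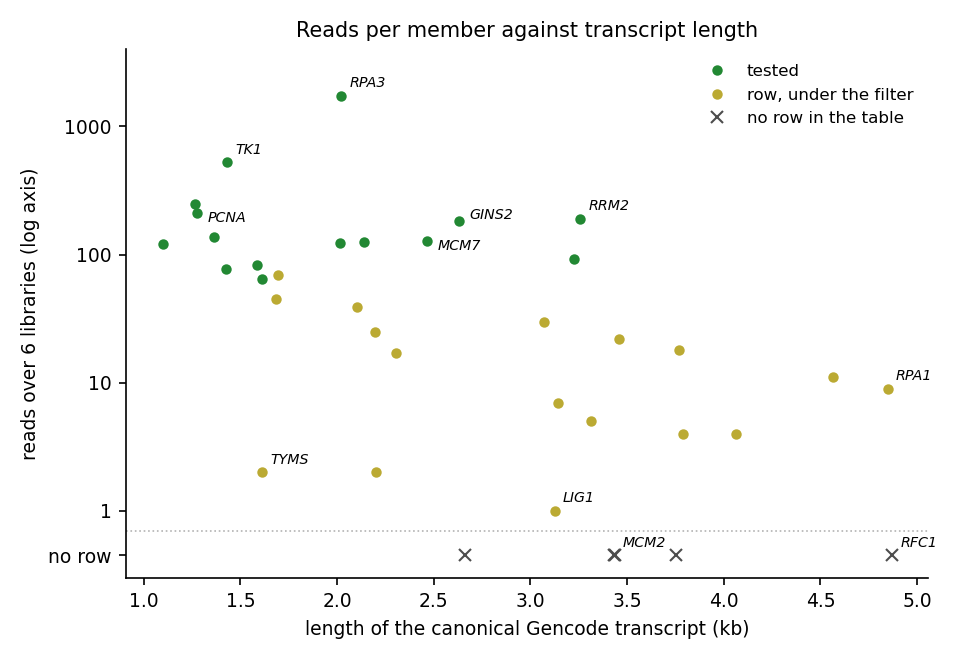
Reads summed over 6 libraries (log axis) against the length of the canonical Gencode transcript in kb for the 37 members, with crosses for the 5 members that had no row. The green points (15 members tested) run from 65 to 1734 reads, RPA3 is the highest, and the yellow points (17 members under the filter) reach at most 69 reads.

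Over all 3888 genes tested, which held 98.8% of the counts, edgeR's quasi-likelihood test with Benjamini-Hochberg adjustment called 504 genes at an adjusted p under 0.1 (13.0%), of which 272 were higher in siDelta2-4 (7.00%) and 232 lower (5.97%). Of the 15 tested members, 1 was called (6.67%). It was RPA3, which fell. An unadjusted p under 0.05 was reached by 5 tested members (33.3%), against 23.1% of all tested genes. The CPM of the groups did not overlap for 5 tested members, against 26.0% of all tested genes. Log2 fold changes were below 0 for 11 tested members and above 0 for 4, while 46.1% of all tested genes (1794) were below 0. The median was -0.31 over the tested members, with a range of -0.64 to 0.84, and 0.0266 over all tested genes. Without siControl 3, 2 of the 16 members then tested were called, RPA3 and PRIM1, while 25.4% of all genes tested were called in that fit, and the members' median was -0.19. Each of the other 5 fits without 1 library called 0 members by edgeR, with 2 to 4 members at an unadjusted p under 0.05. Over all genes those fits called 194 to 308, with 3999 to 4127 genes tested, so few member calls were to be had there. PRIM1 was over the filter level in 1 siControl and 3 siDelta2-4 libraries and so entered the test through the group in which it was higher.

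**Figure D2:**
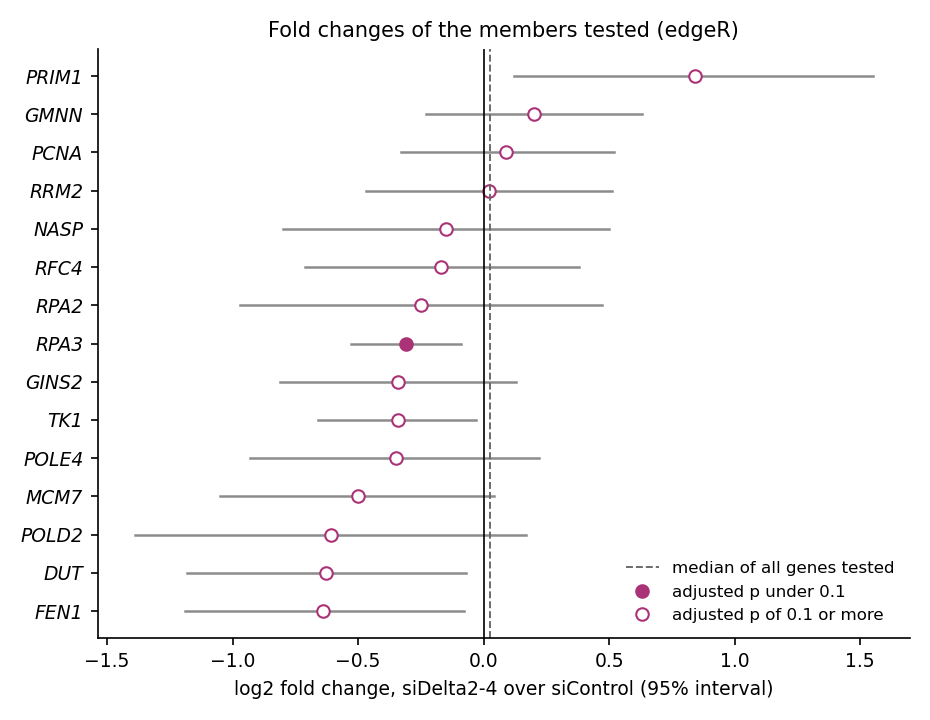
Log2 fold change of siDelta2-4 over siControl with its 95% interval for the 15 tested members, from the fit across all genes. The filled point (RPA3, -0.31) is the member with an adjusted p under 0.1, and the dashed line is the median of all genes tested, 0.0266.

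The proteins that bind single-stranded DNA made up the largest share of the reads. RPA3 is the smallest subunit of replication protein A (ENSG00000106399.11, GRCh38 chr7:7636518-7718607, minus strand), and it alone had 1734 of the 4352 reads of the whole group. Its counts were 322, 307 and 269 in siControl and 267, 298 and 271 in siDelta2-4. On TMM-scaled totals these were 314, 294 and 258 CPM against 250, 242 and 208 CPM. Every siDelta2-4 library was below every siControl library on this scale, and siControl 3 lay nearest to them. RPA3 thus went from 289 ± 28.6 to 233 ± 22.4 CPM (SD, n = 3 per group), a fall of 19.3%. Its log2 fold change was -0.31 ± 0.11 (SE, 95% interval -0.53 to -0.09, edgeR's quasi-likelihood test with Benjamini-Hochberg adjusted p = 0.0753). In bulk libraries, fewer cells that express a gene and less of its RNA per cell cannot be told apart.

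This call was close to its threshold. The log2 fold change of RPA3 was below 0 in all 15 alternatives that gave a value, from -0.48 to -0.23, and the call held in 8 of them, with adjusted p between 0.00287 and 0.325. With library totals as the only scaling it was -0.24 (adjusted p = 0.155). In 5 of the 6 fits without 1 library the call was lost. The adjusted p from edgeR's quasi-likelihood test was 0.193 without siControl 1, 0.216 without siControl 2, 0.111 without siDelta2-4 1, 0.165 without siDelta2-4 2 and 0.325 without siDelta2-4 3. Without siControl 3 the log2 fold change was -0.41 and the adjusted p 0.00287.

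The RPA3 reads lay almost entirely on a model outside the annotation. The model TALONT000375734, which the authors' table classes as an incomplete splice match to the 3′ part of an annotated chain, held 94.5% of them. It has 4 exons and 1717 nt, whereas the canonical RPA3-201 has 8 exons and 2020 nt, of which the last 4 exons make up 1605 nt. Its counts were 304, 294 and 256 in siControl and 251, 282 and 252 in siDelta2-4. A model with a new splice site, TALONT000375748, had 85 reads and a log2 change of -0.08 ± 0.31 (SE, adjusted p = 0.942 by edgeR). The annotated RPA3 models had 10 reads in all, so with known models alone RPA3 could not be tested. RPA3 overlaps UMAD1 on the opposite strand, which had 3 reads. Whether the counting used strand is not given in the sources used here, so reads of such pairs may not be separated.

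The larger RPA subunits had far fewer reads. RPA2 counts were 15, 9 and 18 against 8, 12 and 21, overlapping between groups, and the log2 fold change stood at -0.25 ± 0.35 (SE, adjusted p = 0.727 in edgeR). RPA1 had 9 reads in all and was not tested. Over the 3 RPA genes, the pooled share was 0.0293 ± 0.00149% of the library count in siControl and 0.0248 ± 0.00212% in siDelta2-4 (SD, n = 3 per group). The shares did not overlap, and RPA3 supplied 1734 of these 1826 reads.

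**Figure D3:**
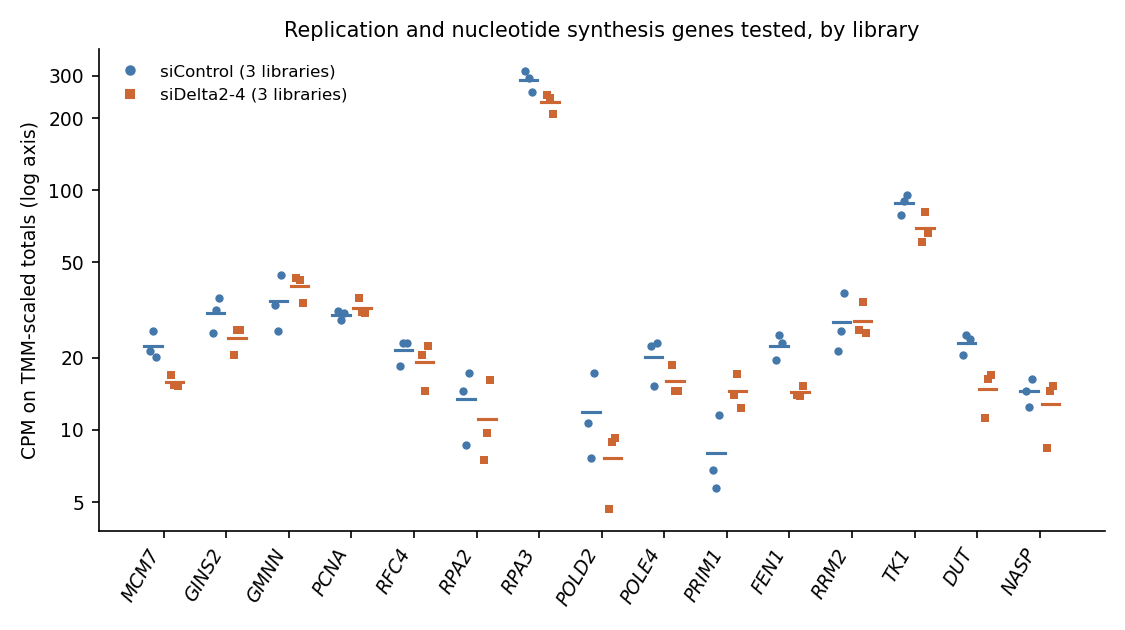
CPM on TMM-scaled totals (log axis) of the 15 tested members in each library, with a bar at the mean of each group (3 libraries). The siDelta2-4 squares lie below all siControl circles for RPA3, FEN1, DUT and MCM7 and above them for PRIM1, while for the other 10 members the groups overlap.

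The helicase genes were represented mainly by MCM7 (ENSG00000166508.19, chr7:100092233-100101940, minus strand), a subunit of the ring that unwinds DNA. Its counts were 22, 27 and 21 in siControl and 18, 19 and 20 in siDelta2-4. Scaled to CPM the groups did not overlap, at 22.5 ± 3.02 and 15.9 ± 0.845 (SD, n = 3 per group). The difference was not called, at a log2 fold change of -0.50 ± 0.27 (SE, 95% interval -1.05 to 0.04, edgeR adjusted p = 0.257). MCM7 overlaps AP4M1 on the opposite strand, which had 13 reads. MCM3 had 30 reads and MCM5 had 22. MCM4 had 4 reads, all in siDelta2-4, and its 0 counts in siControl allow up to 3 over that group. A gene with reads in siControl alone could not have been listed, so this pattern is not read as a difference. Pooled over the 4 MCM genes with rows, the share was 0.00286 ± 0.000502% against 0.00257 ± 0.00022%, with overlap.

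GINS binds MCM together with CDC45 to form the active helicase. GINS2 (ENSG00000131153.9, chr16:85676198-85690073, minus strand) was counted 26, 33 and 37 times in siControl and 22, 32 and 34 times in siDelta2-4. The groups overlapped, at 30.8 ± 5.1 and 24.2 ± 3.14 CPM (SD, n = 3 per group). Its log2 fold change was -0.34 ± 0.23 (SE, 95% interval -0.81 to 0.13, edgeR adjusted p = 0.397). All of its reads lay on GINS2-201, and the gene overlaps GSE1 on the opposite strand, which had 150 reads. The other GINS genes had 18 reads (GINS4), 5 reads (GINS1) and 2 reads (GINS3).

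Among the licensing genes, geminin and CDC6 had a higher mean CPM after knockdown without a call, in a table whose rows are tied to siDelta2-4. Geminin, encoded by GMNN (ENSG00000112312.10, chr6:24774931-24786099, plus strand), blocks the loading of MCM by binding CDT1. Its counts were 34, 27 and 46 in siControl and 46, 52 and 44 in siDelta2-4. In CPM the groups overlapped at 34.4 ± 9.15 and 39.7 ± 5.15 (SD, n = 3 per group), and the highest value was that of siControl 3. The log2 fold change was 0.20 ± 0.21 (SE, 95% interval -0.23 to 0.63, edgeR adjusted p = 0.613), and with known models alone it was -0.04. It was 0.03 (edgeR adjusted p = 0.965) under the same row rule for both groups, which asks unannotated models for at least 5 counts in every library. The reads of GMNN were spread over several models, of which GMNN-201 had 80, GMNN-202 had 64, TALONT000288134 with a new splice site had 53, and TALONT000288150 with a new combination of known sites had 48. CDC6, which loads MCM with CDT1, had 0, 1 and 1 reads in siControl and 2, 3 and 4 reads in siDelta2-4. These 11 reads were too few for the test, and without a filter the edgeR adjusted p was 0.525. Low counts lean to siDelta2-4 in this table, so the pattern of CDC6 is not read as a difference.

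The clamp had close counts within each group. PCNA (ENSG00000132646.11, chr20:5114953-5126626, minus strand), the ring that tethers polymerases to DNA, had 32, 30 and 32 reads in siControl and 38, 38 and 40 reads in siDelta2-4. Raw counts were higher in every siDelta2-4 library, but on TMM-scaled totals the groups overlapped at 30.2 ± 1.27 and 32.4 ± 2.77 CPM (SD, n = 3 per group). The log2 fold change was 0.09 ± 0.21 (SE, 95% interval -0.33 to 0.52, edgeR adjusted p = 0.835), and its sign turned when the trend on transcript length was removed (-0.07). Of the loader genes, RFC4 was tested, with 19, 24 and 24 counts against 22, 18 and 29. Its groups overlapped, and the log2 fold change was -0.17 ± 0.26 (SE, adjusted p = 0.758 by edgeR). RFC4 overlaps EIF4A2 on the opposite strand, which had 329 reads and a log2 fold change of 0.53 (adjusted p = 0.0758). RFC2 had 6, 4 and 4 counts against 7, 18 and 6, where siDelta2-4 2 stood apart, RFC5 had 39 reads and RFC3 17.

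The polymerase and primase genes held the tested member with the highest log2 fold change. PRIM1 (ENSG00000198056.16, chr12:56730438-56752374, minus strand) is the catalytic subunit of primase. Its counts were 7, 6 and 12 in siControl and 15, 21 and 16 in siDelta2-4. Scaled to CPM the groups did not overlap, and siControl 3 at 11.5 CPM lay close under siDelta2-4 3 at 12.3 CPM. From 8.02 ± 3.05 to 14.5 ± 2.42 CPM (SD, n = 3 per group), the log2 fold change was 0.84 ± 0.35 (SE, 95% interval 0.12 to 1.55, edgeR adjusted p = 0.139) and was not called. With 1 library left out, the log2 fold change of PRIM1 ran from 0.64 without siControl 2 (edgeR adjusted p = 0.44) to 1.16 without siControl 3. In that last fit it was called (adjusted p = 0.046) together with 25.4% of all genes tested, and in the other 5 it was not. All 77 reads of PRIM1 lay on the model TALONT000397204, an incomplete match to the 5′ part of an annotated chain, with 13 exons and 1427 nt against 1423 nt in the canonical transcript. PRIM1 overlaps NACA on the same strand, which had 9098 reads and a log2 fold change of 0.04.

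The accessory subunits of the polymerases did not pass the test. POLE4 (ENSG00000115350.12, chr2:74958643-74970128, plus strand), a small histone-fold subunit of DNA polymerase epsilon, had 23, 16 and 24 reads in siControl and 20, 18 and 19 reads in siDelta2-4. The groups overlapped at 20.3 ± 4.26 and 16.0 ± 2.38 CPM (SD, n = 3 per group), with a log2 fold change of -0.35 ± 0.28 (SE, 95% interval -0.93 to 0.22, edgeR adjusted p = 0.482). POLD2, the regulatory subunit of DNA polymerase delta, had 11, 8 and 18 counts against 5, 11 and 12. Its log2 fold change was -0.61 ± 0.38 (SE, 95% interval -1.39 to 0.17, edgeR adjusted p = 0.348). POLD4, another subunit of the same polymerase, had 9, 6 and 9 counts against 13, 21 and 11, and with 69 reads it was just under the filter. Without a filter its log2 fold change was 0.67 (edgeR adjusted p = 0.498). POLE3 had 25 reads and POLD3 had 4.

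FEN1 (ENSG00000168496.4, chr11:61792911-61797238, plus strand) is the nuclease that removes the flap at the end of each Okazaki fragment. Its counts were 20, 26 and 24 in siControl and 15, 17 and 20 in siDelta2-4. On the CPM scale the groups did not overlap, at 22.5 ± 2.75 and 14.4 ± 0.827 (SD, n = 3 per group). The log2 fold change was -0.64 ± 0.27 (SE, 95% interval -1.19 to -0.08, edgeR adjusted p = 0.147), the lowest of the tested members, and it was not called. All 122 reads lay on the annotated FEN1-201. LIG1, the ligase that seals the nick, had 1 read, in siDelta2-4, the only group in which a lone read could be listed.

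Of the enzymes of deoxynucleotide synthesis, TK1 and DUT had an unadjusted p under 0.05 and neither was called. TK1 (ENSG00000167900.12, chr17:78174091-78187233, minus strand), the cytosolic thymidine kinase of S phase, had 81, 94 and 100 reads in siControl and 65, 100 and 86 reads in siDelta2-4. In CPM these were 79.0, 90.1 and 95.8 against 60.9, 81.3 and 66.0, so siDelta2-4 2 lay above siControl 1. TK1 stood at 88.3 ± 8.56 and 69.4 ± 10.6 CPM (SD, n = 3 per group), a log2 fold change of -0.34 ± 0.15 (SE, 95% interval -0.66 to -0.03, edgeR adjusted p = 0.166). With 526 reads it was the member with the most reads after RPA3.

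DUT (ENSG00000128951.14, chr15:48331011-48343373, plus strand) encodes dUTPase, which keeps uracil out of DNA and yields the precursor of thymidylate. It had 21, 26 and 25 reads in siControl and 12, 20 and 22 reads in siDelta2-4. The groups did not overlap in CPM, at 23.1 ± 2.34 and 14.8 ± 3.09 (SD, n = 3 per group). The log2 fold change was -0.63 ± 0.27 (SE, 95% interval -1.18 to -0.07, edgeR adjusted p = 0.157). Its main model DUT-202, with 85.7% of the reads, had 19, 25 and 22 counts against 10, 14 and 18, and a log2 change of -0.83 ± 0.29 (SE, edgeR adjusted p over all models = 0.106).

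RRM2, the inducible small subunit of ribonucleotide reductase, had 22, 27 and 39 reads in siControl and 28, 42 and 33 reads in siDelta2-4. The groups overlapped at 28.2 ± 8.21 and 28.6 ± 4.85 CPM (SD, n = 3 per group), with a log2 fold change of 0.02 ± 0.24 (SE, 95% interval -0.47 to 0.51, edgeR adjusted p = 0.981). RRM1, its large partner, had 7 reads, and TYMS, the thymidylate synthase, had 2. For the histone chaperone NASP (ENSG00000132780.17, chr1:45583846-45618904, plus strand), which holds soluble H3 and H4, the counts were 15, 13 and 17 against 9, 18 and 20. The groups overlapped and the log2 fold change was -0.15 ± 0.32 (SE, 95% interval -0.80 to 0.50, edgeR adjusted p = 0.824), with a sign that turned without siDelta2-4 1 (0.05). NASP overlaps a pseudogene on the opposite strand, ENSG00000281112, with 84 reads.

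The counts were next pooled, because most members were low. The members together had 711, 714 and 750 reads in siControl and 646, 790 and 741 in siDelta2-4. As a share of the library count these were 0.0643%, 0.0663% and 0.0723% against 0.0604%, 0.0667% and 0.0566%, or 0.0676 ± 0.00418% and 0.0612 ± 0.00512% (SD, n = 3 per group). The groups overlapped, since siDelta2-4 2 lay above siControl 1 and 2. In siDelta2-4 the mean was 0.906 times that of siControl, and this ratio was 0.946 without RPA3 and 0.981 without RPA3 and TK1, again with overlap. Leaving out siControl 3 gave 0.938 for all members, 1.03 without RPA3 and 1.08 without RPA3 and TK1, so the direction of the last 2 turned. The groups of the last did not overlap in that set. Its ratio was 1.0 when siDelta2-4 1 or siDelta2-4 3 was left out instead. The difference in the share of all members, -0.00637 percentage points, became -0.00403 without siControl 3 and -0.00405 without siDelta2-4 3. The 17 members under the filter, pooled, had 0.00392 ± 0.000285% in siControl and 0.0052 ± 0.00106% in siDelta2-4, which also overlapped. No model without a siDelta2-4 count is listed, so a pool of low counts leans to that group. This comparison therefore cannot show a difference between the groups.

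By role, single-strand binding held 42.0% of the pooled reads, nucleotide synthesis 19.6%, clamp and loader 10.3%, polymerases and primase 8.27%, licensing 5.97%, GINS 4.8%, MCM 4.2%, Okazaki fragment joining 2.83% and NASP 2.11%. The shares of the groups did not overlap for single-strand binding, with a ratio of 0.846, or for Okazaki fragment joining, with a ratio of 0.68, and these rest on RPA3 and FEN1. For the other 7 roles they overlapped. Without siControl 3, licensing (ratio 1.5), clamp and loader (1.14) and polymerases and primase (1.29) no longer overlapped and were higher in siDelta2-4. Without siControl 1, GINS (0.753) and nucleotide synthesis (0.776) no longer overlapped and were lower. The same held for nucleotide synthesis without siDelta2-4 2 (0.76), and clamp and loader was separate and higher without siDelta2-4 3 (1.16). Separation is easier with a library left out, because fewer values have to stand apart. These pools also hold members with few reads, and no model without a siDelta2-4 count is listed. No share over all genes was taken for these sets, so these separations are not read as results on the roles. Over the 6 sets that left out 1 library, the ratio ran from 0.823 to 0.888 for single-strand binding and from 0.627 to 0.719 for Okazaki fragment joining. Leaving out a library cannot make separate groups overlap, so these sets do not test the separation of the 2 roles.

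**Figure D4:**
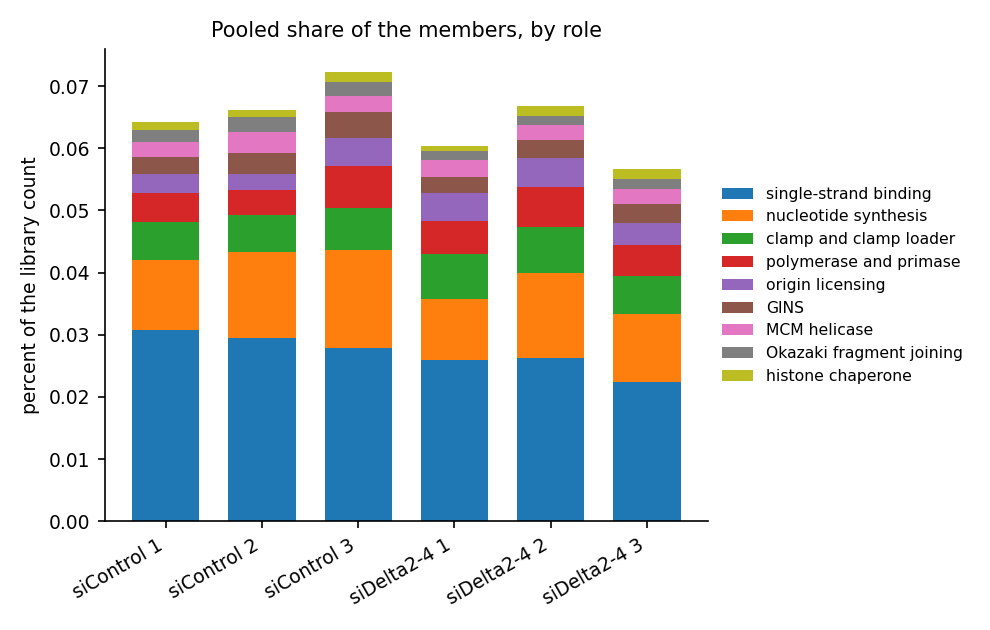
Pooled reads of the 32 members with a row, as a percent of the library count, stacked by role for each of the 6 libraries. The single-strand binding segment is the tallest in each bar, and the whole bars overlap between the groups, from 0.0643 to 0.0723 in siControl and from 0.0566 to 0.0667 in siDelta2-4.

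The table held 73 transcript models of the members, of which 68 were annotated and carried 56.3% of the member reads, while over all genes annotated models carried 45.3%. The 2 incomplete splice matches, of RPA3 and PRIM1, carried 39.4%. In a fit over all 6768 models tested, edgeR called 468 (6.91%), and none of the 16 member models, from 14 genes, was among them. An unadjusted p under 0.05 by edgeR was reached by 5 of these member models. The DESeq2 Wald test called 233 models over all genes. Of the 2 member models to which it gave an adjusted p, it called 1, TALONT000375734 of RPA3.

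Length moved with the fold changes over the whole table. Spearman's rho between the mean model length of a gene and its log2 fold change was 0.326 over the 3888 tested genes, a description across genes of the same libraries. The tested members were longer than most, with a median of 1576 nt against 1143 nt over all tested genes. When a smooth trend on length was removed from each library, 4 of the 15 tested members were called by edgeR, all lower, against 12.1% of all tested genes called and 6.89% called lower in the same fit. They were RPA3 at -0.48 (adjusted p = 0.0235), TK1 at -0.50 (0.0368), FEN1 at -0.81 (0.0567) and DUT at -0.79 (0.0626). The part of length in these differences was not tested further.

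**Figure D5:**
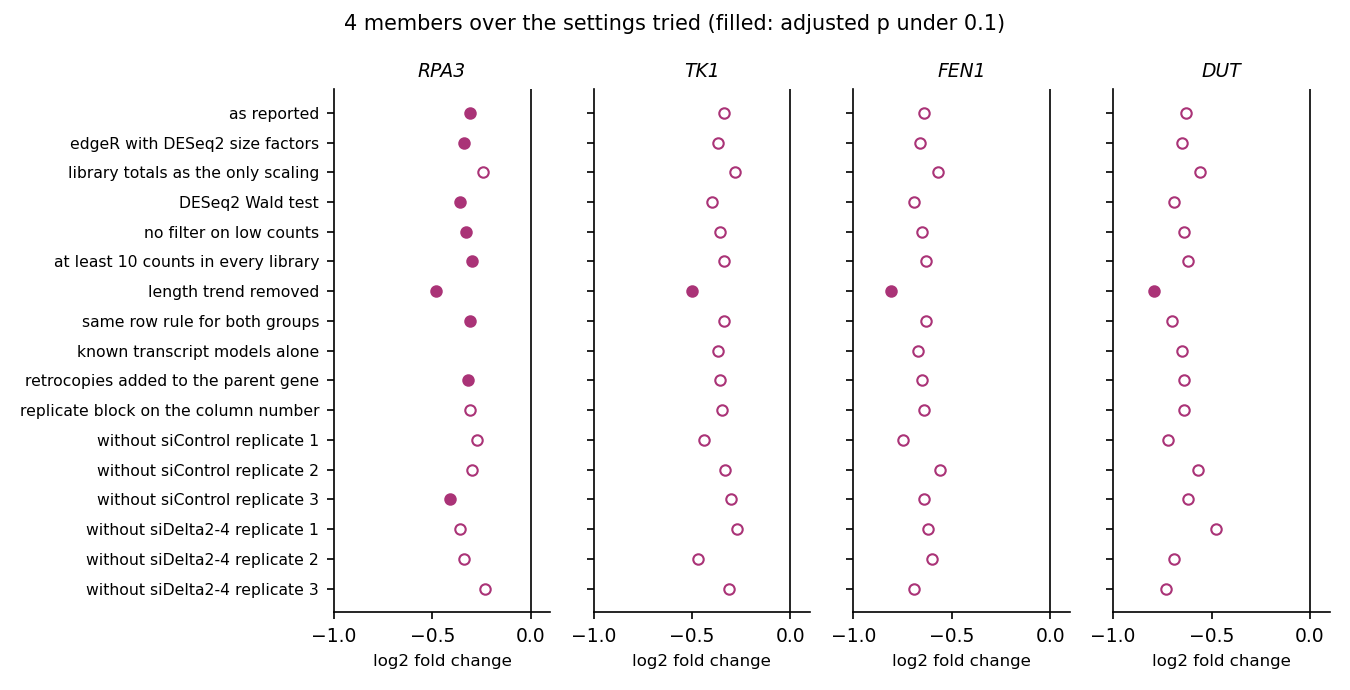
Log2 fold change of RPA3, TK1, FEN1 and DUT in siDelta2-4 over siControl under the reported settings and each alternative, with filled points for an adjusted p under 0.1. All points lie below 0, RPA3 changes between filled and open, and the other 3 genes are filled where the length trend was removed and nowhere else.

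The rest of the pathway was read from 4 lists of 108 further genes, of which 70 had a row and 26 were tested. None was called higher and 1 was called lower, against 7.00% and 5.97% of all tested genes, with log2 fold changes below 0 for 12 and above 0 for 14 and a median of 0.03. The other replication factors had 5 tested genes of 36, with 0 called and a median of 0.18. The tested genes were ORC3, RNASEH2A, RNASEH2B, RNASEH2C and PCLAF. The other genes of the origin recognition complex were not tested, nor was CDC45 with 22 reads, and POLA1 and POLA2 of DNA polymerase alpha had no row. Among genes of chromatin behind the fork 2 of 14 were tested, and among those of G1/S control 4 of 24 were tested with a median of -0.07, and none was called. In these 3 lists an unadjusted p under 0.05 was reached by 1 gene, CBX5 (log2 fold change 0.21, edgeR adjusted p = 0.202), and the DESeq2 Wald test, which gave an adjusted p for 10 of the 26 tested genes of the 4 lists, called 0. The other nucleotide enzymes had 15 tested genes of 34 and a median of 0.03. In this list an unadjusted p under 0.05 was reached by SHMT2 and by ATIC, an enzyme of purine synthesis, whose log2 fold change was 0.78 ± 0.33 (SE, adjusted p = 0.148 by edgeR).

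The gene called in these lists was SHMT2 (ENSG00000182199.11, chr12:57229573-57234935), the mitochondrial serine hydroxymethyltransferase that feeds folate-bound carbon units into nucleotide synthesis. Its counts were 47, 58 and 40 in siControl and 26, 41 and 39 in siDelta2-4. SHMT2 fell from 46.6 ± 8.68 to 29.2 ± 4.53 CPM (SD, n = 3 per group), a log2 change of -0.66 ± 0.21 (SE, adjusted p = 0.044 by edgeR). The call was lost without siControl 2 (adjusted p = 0.244), without siDelta2-4 1 (0.158) and without siDelta2-4 3 (0.108), and the log2 fold change was below 0 in all 15 alternatives with an adjusted p.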

How the data were processed

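Reads came from PCR-cDNA libraries of 6 samples pooled on 1 Nanopore flow cell. Per the labels and the study's methods, the authors aligned them to GRCh38.p14 with minimap2 2.14, handled them with SAMtools 1.13, and used TranscriptClean for correction and TALON with Gencode 44 for annotation. The deposited values were raw counts per transcript model, not normalised, and the deposited model lengths in bases were used as they stood. Unannotated models had at least 5 counts in every siDelta2-4 library. Each column went to the group whose siRNA its name carries.

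Counts were summed per gene and gene positions taken from Gencode 44. All genes were fitted in edgeR 4.0.16 under R 4.3.3 with filterByExpr (minimum count 10), TMM and a 2-sided quasi-likelihood test of siDelta2-4 against siControl with no covariate. Benjamini-Hochberg adjustment ran over all genes tested, with 0.1 as the limit for a call. Single transcript models were fitted likewise. The SE was taken as the log2 fold change over the root of the F statistic. The script was tested on simulated data. A count of 0 was taken to allow up to 3 counts, for counting error alone.

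The members and all lists were chosen with earlier results of these data known. Full values are given for members called, those with an unadjusted p under 0.05 and the member of each role with the most counts, and for called genes of the other lists; POLD2, RPA2, RFC4, RRM2 and the members under the filter were added to account for every member. Alternatives covered scaling, DESeq2 1.42.0, filters, threshold, a loess trend on length (span 0.4), the row rule, known models alone, pseudogene copies, a replicate block and each library left out. The pooled shares of subsets with a library left out were added after the data were seen.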

Additional observations from a re-analysis of the deposited data

How the results depend on the processing

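Over all genes, the number called was 279 with the DESeq2 Wald test, 252 with known transcript models alone, 299 when the column number entered as a replicate block, 304 at an adjusted p under 0.05 and 194 to 1041 with 1 library left out, highest without siControl 3 and lowest without siDelta2-4 2. The number of members called, and called lower, was 0 with library totals as the scaling, known models alone, the replicate block or an adjusted p under 0.05, and 4 after removal of the length trend. RPA3 was not among the 13 members tested with known models alone, so that setting does not test its call. With 1 library left out, 0 to 2 members were called, 0 to 1 of them higher and 0 to 1 lower, and the median log2 fold change of the tested members ran from -0.31 to -0.19, with -0.19 without siControl 3. With DESeq2 size factors 1 of 16 member models was called, DUT-202, beside 481 of all 6768 models. The stricter filter of 10 counts per library also called DUT-202, 1 of 11 member models, beside 426 of 5029. The DESeq2 Wald test called 1 of the 2 member models with an adjusted p, and 233 models over all genes. Without siControl 3, 4 of 17 member models were called, beside 1113 of 7285. Each other fit without 1 library called 0 member models, and 173 to 336 models over all genes. The sign turned for GMNN with known models alone (-0.04), for NASP without siDelta2-4 replicate 1 (0.05, with -0.30 as the lowest value of its fits without 1 library) and for PCNA without the length trend (-0.07). Of 174 alternatives for the 11 members given in full, 159 kept direction and side of the threshold. RPA3 alone of these members was called, so most of these are uncalled members that stayed uncalled. For those the stricter threshold could change nothing. The 8 alternatives that lost a call were all of RPA3, while 4 gained a call and 3 turned the sign. DESeq2 gave no adjusted p for 9 of these members. Between libraries with the same column number, the deviations from the group mean had correlations of 0.039, -0.136 and -0.0843. The labels do not say whether equal numbers share a source, and this was not tested. Under the replicate block RPA3 was at -0.31 (edgeR adjusted p = 0.105) and was not called.

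The 13 tested members other than RPA3 and TK1 had 65 to 249 reads, and their 95% intervals were 0.85 to 1.56 log2 units wide, so small differences were not detectable. The table holds no TERT reads, siControl 3 lies between the groups and the table's row rule is tied to siDelta2-4, and the part of these in the differences was not tested.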
